A study of Arabidopsis thaliana with 6 samples.

Results

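The 10 genes described here are the sulfur deficiency response genes SDI1, SDI2, APR1, APR2, APR3, SULTR1;1, SULTR1;2, BGLU28, LSU1 and LSU2 of Arabidopsis thaliana. They were chosen by gene identifier among the 24267 genes of the count table, and all 10 had enough reads to be tested. The choice was made with earlier results of these data known, so their counts beside those of all genes are descriptive. Wild-type (Col) seedlings grew for 4 days on Murashige and Skoog medium with 3% sucrose and were then moved to plates with the auxin IAA (indole-3-acetic acid) at 1 nM, with melatonin (MT) at 10 nM, or with the 0.1% ethanol solvent as control. RNA was sequenced at 72 h in 2 libraries per group, 6 in all, so no group was without ethanol and the doses of the 2 compounds differed. The sample labels give seedlings as the tissue, whereas the series text speaks of rosette leaves. All 16 root markers and all 8 shoot markers examined had counts in every library, at least 43 and at least 17907.

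Plants take up sulfate through transporters of the root epidermis and cortex. ATP sulfurylase then activates it to adenosine 5′-phosphosulfate (APS). APS reductase turns APS into sulfite, which becomes sulfide and then cysteine, while APS kinase diverts part of the APS to sulfated compounds such as glucosinolates. When sulfate runs short, the transcription factor SLIM1 and the cysteine precursor O-acetylserine are known to bring up a set of transcripts for uptake, reduction and recycling of sulfur, and the 10 genes belong to that set. No group here was grown without sulfate, so the comparisons ask how these genes stood in plants given IAA or melatonin on complete medium.

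Library totals ran from 35953236 to 46076624 counts. Levels are counts per 1000000 (CPM) with library sizes scaled by trimmed mean of M values (TMM), as mean ± SD of 2 libraries per group. Fold changes are log2 values ± SE from edgeR's quasi-likelihood test over all 6 libraries, with p-values adjusted by Benjamini-Hochberg over the 21355 genes tested and 0.05 as threshold. In what follows "rose" and "fell" are used for genes past it. Nothing in the labels tells whether replicates were separate cultures, so p-values cover only the variation among these libraries, possibly technical. Counts of the 10 genes ran from 20 to 11492 per library, and from 120 upward without LSU1. In bulk RNA, fewer cells of a type and less RNA per cell cannot be told apart.

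With melatonin 5 of the 10 genes rose over control, 0 fell and 5 did not pass, against 3.99% of all genes tested that rose and 3.65% that fell. The 5 were SDI1, SDI2, APR1, APR3 and LSU2, at 1.89 to 2.87 times their control level. The median log2 fold change of the 10 genes was 1.10, and that of all genes tested was 0.0017. In 7 of the 10 both MT libraries lay above both control libraries and in 1 below, beside 27.8 and 27.7% of all genes. An unadjusted p under 0.05 was found for 7, beside 25.2% of all genes, and DESeq2 called 7, adding APR2 and BGLU28, beside 14.2%.

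With IAA 0 of the 10 passed, against 0.332% of all genes tested in either direction, although all 10 estimates were above 0. The median was 0.70, beside 0.00043 for all genes. In 9 of the 10, all but SULTR1;2, both IAA libraries lay above both control libraries and in 0 below, beside 23.6 and 24.8% of all genes. An unadjusted p under 0.05 was found for 6, beside 14.3% of all genes. DESeq2 called 6 (SDI1, SDI2, APR1, APR3, BGLU28 and LSU2), beside 3.66% of the genes it tested. These 6 passed in DESeq2 only, and the other 4 passed in neither test.

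Between MT and IAA 0 of the 10 passed in edgeR's test, beside 0.173% of all genes, and the median was 0.24, beside -0.0046 for all genes. An unadjusted p under 0.05 was found for 6, beside 17.4% of all genes, and DESeq2 called 4 (SDI1, SDI2, APR1 and APR3), beside 7.12%. In 5 genes both MT libraries lay above both IAA libraries and in 2 below, beside 24.3 and 26.1% of all genes. The 2 compounds were given at different doses, so this sets 2 treatments side by side, not 2 compounds at a matched dose. The comparisons of IAA and of MT with control share the control libraries, so their estimates are not independent.

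**Figure D1:**
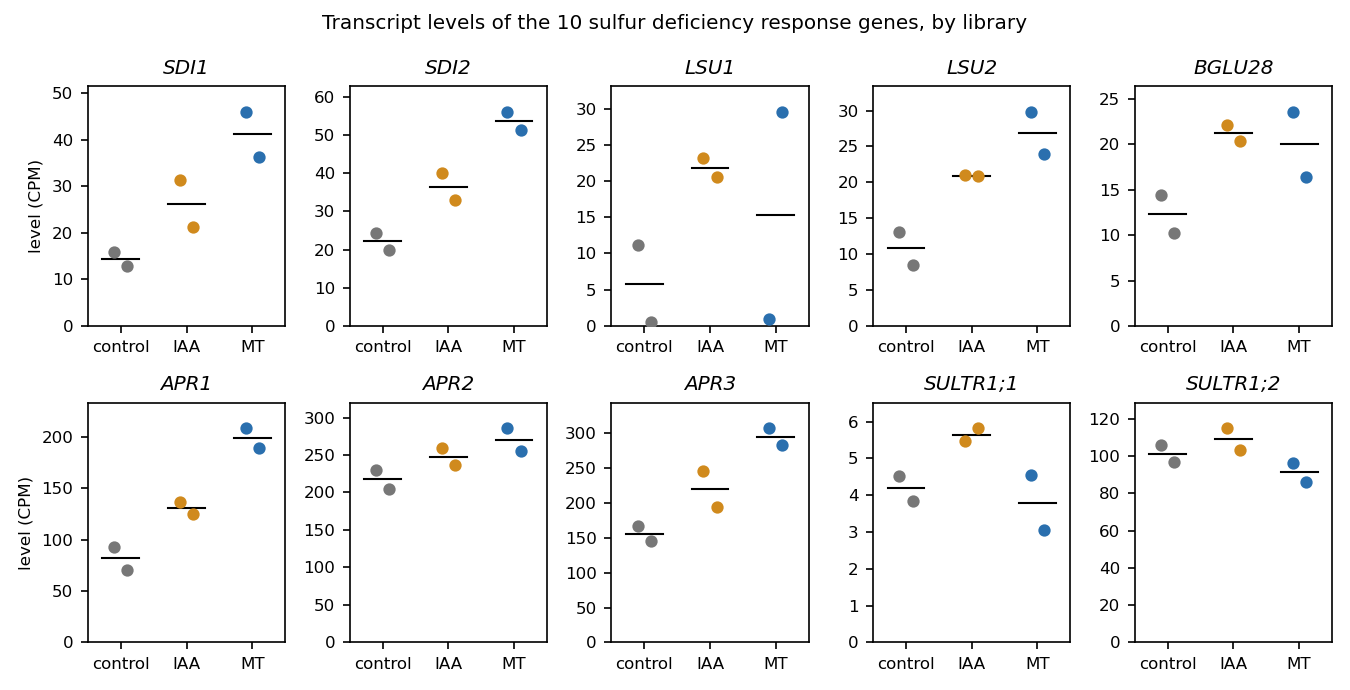
Level of each of the 10 genes (CPM, vertical axis from 0) in the control, IAA and MT groups. Each point is 1 library, replicate 1 left and replicate 2 right, and the bar is the mean of the 2. In SDI1, SDI2, APR1, APR3 and LSU2 both MT libraries lie above both IAA libraries and these above both control libraries. The share of all genes with this order was not counted, so it is given as description only. LSU1 is near 0 in 1 control and 1 MT library.

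**Figure D2:**
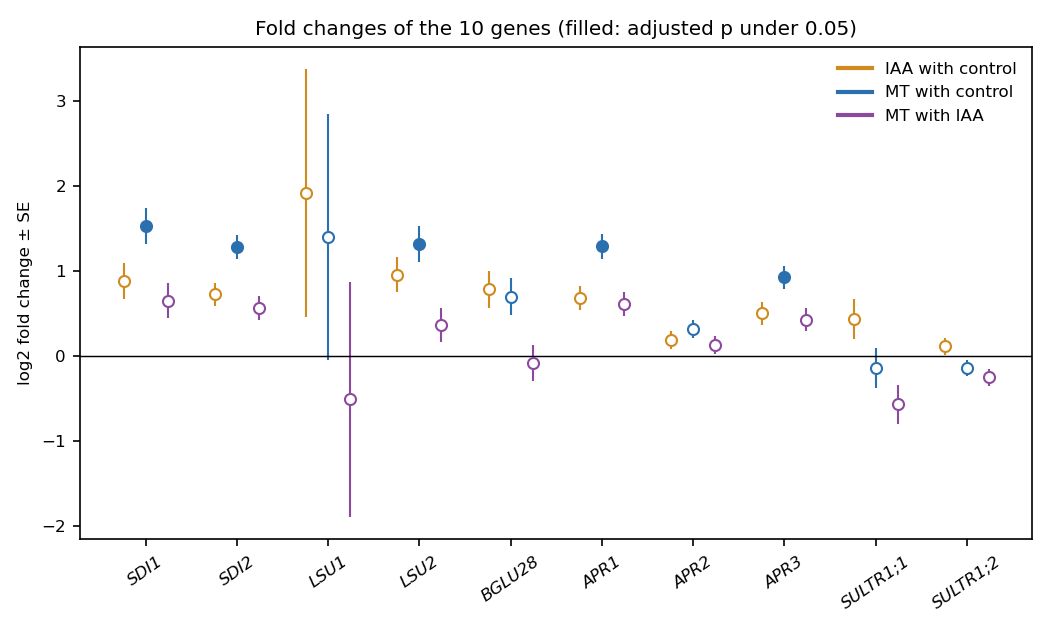
Log2 fold change ± SE (vertical axis) of each gene in 3 comparisons, coloured by comparison, with filled symbols for an adjusted p under 0.05. The 5 filled symbols all belong to MT with control, and the sulfate transporters SULTR1;1 and SULTR1;2 lie near 0 there.

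SDI1 and SDI2 encode tetratricopeptide repeat proteins that hold back glucosinolate synthesis under sulfur deficiency, SDI1 by binding the activator MYB28. SDI1 (AT5G48850) stood at 15.8 and 12.9 CPM in control, at 31.3 and 21.3 in the IAA libraries and at 46.1 and 36.4 in the MT libraries. The groups did not overlap and MT was the highest. It rose with MT by 1.52 ± 0.21 (adjusted p = 0.0113), the largest estimate among the 5 genes called. With IAA it had 0.87 ± 0.21 (adjusted p = 0.181). SDI2 (AT1G04770) stood at 24.4 and 19.8 CPM in control, 40.0 and 32.9 with IAA, and 56.1 and 51.2 with MT. Again the 3 groups were apart from each other. It rose with MT by 1.28 ± 0.14 (adjusted p = 0.00542) and had 0.72 ± 0.14 with IAA (adjusted p = 0.125). MT exceeded IAA by 0.65 ± 0.21 for SDI1 (adjusted p = 0.198) and by 0.56 ± 0.14 for SDI2 (adjusted p = 0.131), neither past the threshold. DESeq2 gave 0.0411 and 0.00975 as adjusted p for these 2 differences.

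APR1, APR2 and APR3 encode the plastid APS reductases, the step at which sulfate reduction is controlled most strongly. APR1 (AT4G04610) stood at 93.2 and 69.9 CPM in control, 136 and 124 with IAA, and 208 and 189 with MT. It rose with MT by 1.28 ± 0.14 (adjusted p = 0.00638) and had 0.68 ± 0.14 with IAA (adjusted p = 0.147). APR3 (AT4G21990) stood at 166 and 145 CPM in control, 245 and 194 with IAA, and 307 and 283 with MT. It rose with MT by 0.92 ± 0.13 (adjusted p = 0.0122) and had 0.50 ± 0.13 with IAA (adjusted p = 0.209). For both genes every MT library was above every IAA library, and every IAA library above every control library. APR2 (AT1G62180), stood at 229.8 and 205 CPM in control, 259 and 236 with IAA, and 286 and 255 with MT. Both MT libraries were above both control libraries but overlapped the IAA libraries, and its 0.31 ± 0.10 with MT did not pass (adjusted p = 0.121; DESeq2 0.0336).

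The isoforms made up different shares of the APR transcripts in the 3 groups. Per kilobase of exon, APR2 made up 44.6 and 46.4% of the summed APR level in control, and its share was 38.2 and 40.3% under IAA and 33.6 and 33.0% under MT. The share of APR1 was 19.2 and 16.8% in control, 21.3 and 22.5% with IAA, and 25.9% in both MT libraries. These shares did not overlap between the groups for either gene, whereas that of APR3, 36.2 and 36.8% in control, 40.5 and 37.2% with IAA and 40.5 and 41.0% with MT, overlapped between IAA and MT. The shares are given without a test.

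LSU1 and LSU2 encode small coiled-coil proteins that bind many partners and are known as sensitive markers of low sulfur. LSU2 (AT5G24660) stood at 13.1 and 8.54 CPM in control, 21.0 and 20.9 with IAA, and 29.8 and 23.9 with MT. The groups did not overlap. It rose with MT by 1.31 ± 0.21 (adjusted p = 0.0170) and had 0.95 ± 0.21 with IAA (adjusted p = 0.157). MT and IAA differed by 0.36 ± 0.20 (adjusted p = 0.420).

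LSU1 (AT3G49580) behaved unlike the other 9 genes, since its 2 control libraries disagreed, as did its 2 MT libraries. Its counts were 398 and 20 in control, 1030 and 975 with IAA, and 33 and 1166 with MT. Control replicate 2 and MT replicate 1 were low, and the other MT library held the highest count of the 6. Between libraries of 1 group its level differed by 4.25 on the log2 scale in control and by 4.91 with MT, but by 0.18 with IAA. Of 18306 genes at 2 CPM or more on average, 51 differed by 3 or more between the control libraries, 58 between the MT libraries and 20 in both groups, LSU1 among them. Its fold changes, 1.91 ± 1.46 with IAA and 1.40 ± 1.45 with MT, rest on single libraries (adjusted p = 0.596 and 0.602). The estimate with MT was 2.35 when MT replicate 1 was left out, and -2.63 when MT replicate 2 was. Without control replicate 1 it had 4.83 with MT and 5.34 with IAA, and without control replicate 2 it had 0.46 and 0.97.

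The other LSU genes did not share this pattern. LSU3 (AT3G49570), the neighbour of LSU1, had 164 and 115 counts in control, 419 and 254 with IAA, and 724 and 520 with MT. LSU2 and LSU3 were higher in MT replicate 1, the library low in LSU1, than in MT replicate 2. The gene on the other side of LSU1, AT3G49590, held 1226 to 1722 counts in all 6 libraries. Neither neighbour overlaps LSU1 in the annotation used, and why the 2 libraries were low was not tested.

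**Figure D3:**
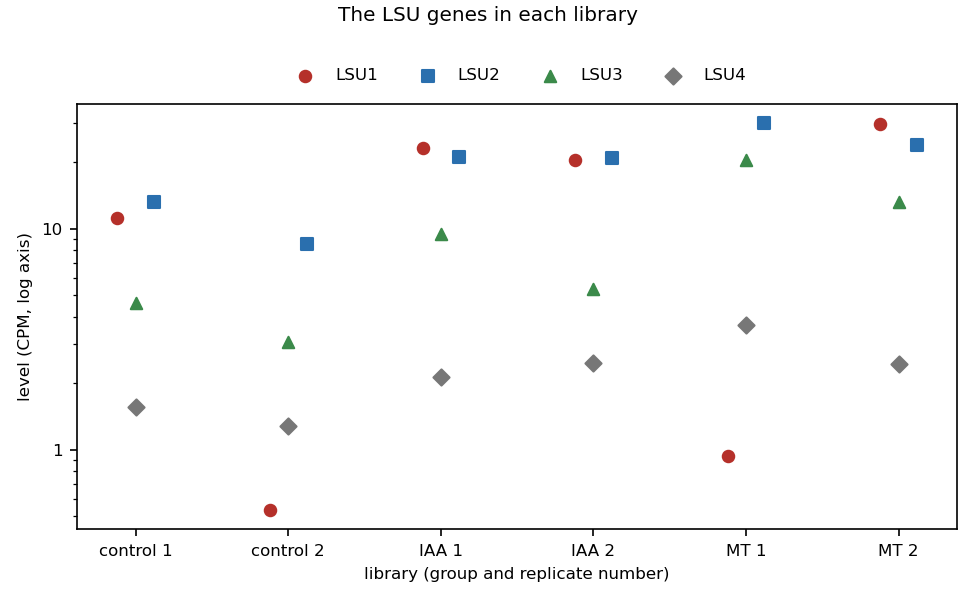
Levels of the 4 LSU genes (CPM, log axis) in each of the 6 libraries, 1 symbol per gene and library. LSU1 drops to 0.536 CPM in control replicate 2 and to 0.934 in MT replicate 1, while LSU2 is at 8.54 and 29.8 CPM in these 2 libraries.

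BGLU28 encodes a beta-glucosidase that breaks down glucosinolates and so releases their sulfur. BGLU28 (AT2G44460) stood at 14.5 and 10.3 CPM in control, 22.1 and 20.4 with IAA, and 23.6 and 16.4 with MT. Both treated groups were above control and overlapped each other. Its estimates were 0.78 ± 0.22 with IAA (adjusted p = 0.220) and 0.69 ± 0.22 with MT (adjusted p = 0.108), neither past the threshold. DESeq2 called both (adjusted p = 0.0266 and 0.0239). MT and IAA differed by -0.09 ± 0.22 (adjusted p = 0.877).

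SULTR1;1 and SULTR1;2 encode the high-affinity transporters through which roots take up sulfate. SULTR1;1 is the one known for strong induction when sulfate is lacking. SULTR1;2 (AT1G78000) stood at 105.8 and 96.9 CPM in control, 115 and 103 with IAA, and 96.4 and 86.3 with MT. Its estimates were 0.11 ± 0.10 with IAA (adjusted p = 0.657) and -0.15 ± 0.10 with MT (adjusted p = 0.385). SULTR1;1 (AT4G08620) stood at 4.53 and 3.86 CPM in control, 5.48 and 5.82 with IAA, and 4.55 and 3.04 with MT. Its estimates were 0.43 ± 0.23 with IAA (adjusted p = 0.453) and -0.14 ± 0.23 with MT (adjusted p = 0.750). These were the only 2 of the 10 genes with an estimate below 0 for MT with control. In both, the 2 MT libraries were below the 2 IAA libraries, by -0.57 ± 0.23 for SULTR1;1 (adjusted p = 0.272) and -0.26 ± 0.10 for SULTR1;2 (adjusted p = 0.247). Of 16 root markers, 15 were likewise lower in both MT libraries than in both IAA libraries, beside 26.1% of all genes. Whether the transporters responded differently from the SDI and APR genes was not tested as a difference between genes.

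Markers of root and shoot were examined beside these values. The 16 root markers had a median log2 fold change of 0.28 with IAA, where 13 were above 0. Among them 0 were called in edgeR's test, beside 0.332% of all genes. Both IAA libraries lay above both control libraries for 7 and below for 0, beside 23.6 and 24.8% of all genes. With MT the median was -0.34. Of the 16, 2 fell and 0 rose, beside 3.65 and 3.99% of all genes. These were the Casparian strip gene CASP5 (-1.27) and the aquaporin gene TIP2;3 (-0.95). Both MT libraries lay below both control libraries for 9 of the 16 and above for 1, beside 27.7 and 27.8% of all genes. Unadjusted p was under 0.05 for 7 (25.2% of all genes), and DESeq2 called 4 (14.2%). Against IAA, both MT libraries were lower for 15 of the 16 (26.1%) and higher for 0 (24.3%). There edgeR's unadjusted p was under 0.05 for 13 (17.4%), and DESeq2 called 7 (7.12%). The 16 markers summed to 494 and 378 CPM in control, 508 and 508 with IAA, and 386 and 387 with MT. In these sums the MT libraries lay within the range of control and the IAA libraries above both other groups. The sums lean on PHO1, the 1 marker with both MT libraries above both control libraries. It held 84.9 and 65.8 CPM in control, 106 and 103 with IAA, and 102 and 100 with MT. The order of the sums therefore need not hold for the other markers. ESB1, a gene of the root endodermis, had 43 counts in IAA replicate 1 and 633 to 1305 elsewhere. It overlaps AT2G28671 on the opposite strand, which had 1478 counts in IAA replicate 1 and 135 to 273 elsewhere, so reads of these 2 genes could not be told apart without strand. The sums without it, a choice made after its values were seen, were 469 and 356, 507 and 481, and 368 and 359 CPM. SULTR1;2 stood at 22.6 and 27.2% of the sum without ESB1 in control, 22.7 and 21.5% with IAA, and 26.2 and 24.02% with MT. Control overlapped both treated groups, but both MT libraries lay above both IAA libraries, the reverse of their order in CPM. The 8 shoot markers summed to 29906 and 31005 CPM in control, 24004 and 22576 with IAA, and 29080 and 25722 with MT. With MT they were mixed, with a median of -0.14. Of them 2, LHCA1 (0.85) and LHCB5 (0.53), rose and 0 fell, beside 3.99 and 3.65% of all genes. Both MT libraries lay above both control libraries for 3 and below for 4, beside 27.8 and 27.7% of all genes. Unadjusted p was under 0.05 for 5 (25.2%), and DESeq2 called 3 (14.2%). With IAA 6 of the 8 were lower in both libraries than in control, beside 24.8% of all genes. In edgeR's test 0 of the 8 were called with IAA, 5 had a p under 0.05 before adjustment (14.3% of all genes), and DESeq2 called 4 of the 8 and 1 of the 16 root markers (3.66%). Set against IAA, all 8 shoot markers had estimates above 0 with MT, with a median of 0.26. For 6 of them both MT libraries exceeded both IAA libraries (24.3% of all genes), and for 0 they were lower (26.1%). There edgeR's test passed 0 of the 8 (0.173%), 5 had p below 0.05 before adjustment (17.4%), and 3 passed in DESeq2 (7.12%). Most root markers were thus lower, and most shoot markers higher, with MT than with IAA. The part of tissue share in the result was not tested.

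In all 3 groups most of the 10 genes were higher in replicate 1. All 10 genes were higher in control replicate 1 than in control replicate 2, and so were all 16 root markers, against 47.8% of all genes tested. With IAA 9 of 10 were higher in replicate 1, all but SULTR1;1, with 10 of 16 root markers and 50% of all genes. With MT 9 of 10 were higher in replicate 1, all but LSU1, with 8 of 16 root markers and 49.8% of all genes. Apart from LSU1, the 2 libraries of a group differed by at most 1.53-fold in any of these genes (LSU2 in control).

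Levels between genes were compared per kilobase of exon, with exon lengths from the TAIR10.1 annotation, which may not be the one used for counting. The length joins all annotated exons of a gene. It was 4193 bases for SULTR1;2 and 2359 for SULTR1;1, so the place of SULTR1;2 in the order depends on the length used. In control the highest level was that of APR2, at 106 ± 8.50 CPM per kb, followed by APR3 at 85.2 ± 8.11 and APR1 at 42.2 ± 8.51. SULTR1;2 (24.2 ± 1.50), SDI2 (17.2 ± 2.49), LSU2 (13.2 ± 3.92) and SDI1 (11.8 ± 1.70) followed, of which LSU2 and SDI1 lay within each other's spread. LSU1 (6.58 ± 8.45) and BGLU28 (5.66 ± 1.35) were not separable, and SULTR1;1 was lowest at 1.78 ± 0.20. With MT the order at the top changed to APR3 (161 ± 9.40), APR2 (132 ± 10.5) and APR1 (102.7 ± 6.89). At these lengths SDI2 (41.8 ± 2.66), SDI1 (34.0 ± 5.65) and LSU2 (32.7 ± 5.08) then stood above SULTR1;2 (21.8 ± 1.71). With IAA, APR2 (120.8 ± 7.96) and APR3 (120.2 ± 19.6) were level.

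A wider list of 42 genes of sulfur metabolism was examined beside these genes. With MT 7 of the 42 rose, 1 fell and 34 did not pass, against 7.65% of all genes tested in either direction, and the median of the list was 0.06. Both MT libraries lay above both control libraries for 18 and below for 8, beside 27.8 and 27.7% of all genes. An unadjusted p under 0.05 was found for 19 (25.2% of all genes), and DESeq2 called 13 (14.2%). LSU3 rose by 2.13 ± 0.36 (adjusted p = 0.0190). SULTR1;3 (AT1G22150), a sulfate transporter of the phloem, rose by 2.05 ± 0.35 (adjusted p = 0.0200), 1 of 10 other sulfate transporter genes. Its counts were 25 and 51 in control, 129 and 160 with IAA, and 174 and 144 with MT, so both treated groups were above control. It had 1.60 ± 0.35 with IAA (adjusted p = 0.153). LSU4 (AT5G24655) had 1.09 ± 0.29 with MT (adjusted p = 0.0677).

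Besides SDI1, APR3 and LSU1, the genes known to follow O-acetylserine include SHM7 and GGCT2;1. SHM7 (AT1G36370), a serine hydroxymethyltransferase, stood at 127 and 104 CPM in control, 194 and 145 with IAA, and 213 and 180.4 with MT. It rose with MT by 0.77 ± 0.17 (adjusted p = 0.0421). GGCT2;1 (AT5G26220), which recycles glutathione, had a like estimate, 0.77 ± 0.25, that did not pass (adjusted p = 0.116).

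Around APS itself, the ATP sulfurylase gene APS3 (AT4G14680) rose with MT by 0.50 ± 0.11 (adjusted p = 0.0432), the only one of 4 to do so. The APS kinase genes APK1 (AT2G14750) and APK2 (AT4G39940) rose by 0.60 ± 0.08 (adjusted p = 0.0110) and 0.42 ± 0.10 (adjusted p = 0.0485), 2 of 4. Of all genes tested 3.99% rose with MT, and these groups hold few genes. APK1 stood at 49.8 and 47.5 CPM in control, 60.4 and 61.8 with IAA, and 78.1 and 69.2 with MT, with no overlap between groups. In the steps beyond sulfite, the sulfite reductase gene, the 8 genes of cysteine synthesis and the 2 of glutathione synthesis gave 0 calls with MT in edgeR's test. Of all genes 7.65% were called in either direction, so 0 calls among so few genes does not set these steps apart. MYB51 (AT1G18570), an activator of indole glucosinolate synthesis, rose by 1.97 ± 0.23 (adjusted p = 0.00664), 1 of 6 glucosinolate MYB factors. The gene that fell was BGLU30 (AT3G60140), also called DIN2 and like BGLU28 a beta-glucosidase, by -1.66 ± 0.19 (adjusted p = 0.00687). With IAA BGLU30 had -0.88 ± 0.19 (adjusted p = 0.151; DESeq2 0.00289). Its estimates with MT and with IAA were thus opposite in sign to those of BGLU28. SLIM1 (AT1G73730) had 0.14 ± 0.12 with MT (adjusted p = 0.508) and -0.10 ± 0.12 with IAA (adjusted p = 0.759).

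**Figure D4:**
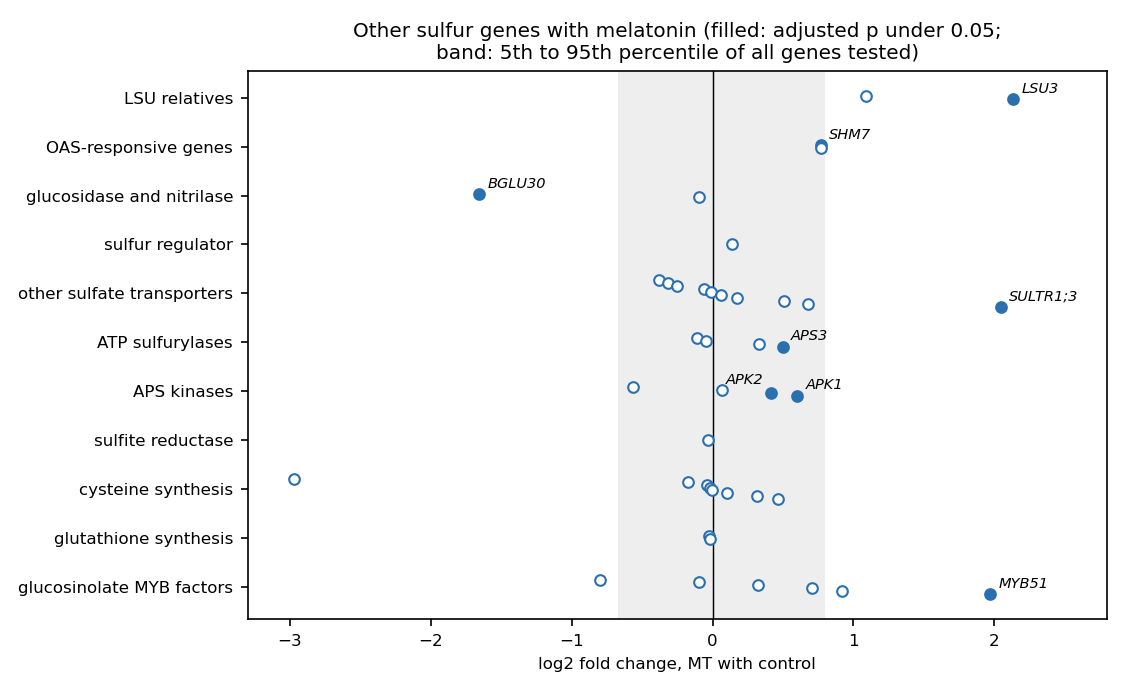
Log2 fold change of 42 other sulfur genes for MT with control (horizontal axis), 1 point per gene in rows by role, filled where the adjusted p was under 0.05. The shaded band spans the 5th to 95th percentile of all genes tested, -0.665 to 0.791. Of the 8 filled points, LSU3, SULTR1;3 and MYB51 lie to the right of the band and BGLU30 to the left, and the open point at -2.97 is SERAT2;2.

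SERAT2;2 (AT3G13110), the mitochondrial serine acetyltransferase that makes most O-acetylserine, also had uneven counts: 232 and 2794 in control, 174 and 592 with IAA, and 9 and 395 with MT. It overlaps AT3G13100 on the same strand, which held 383 and 411, 577 and 557, and 1994 and 5683 counts. Whether reads were split between the 2 genes was not tested. With counts of SERAT2;2 this uneven within groups, its -2.97 ± 1.46 with MT (adjusted p = 0.259) is uncertain. With IAA 0 of the 42 genes were called in edgeR's test (0.332% of all genes), 9 had a p under 0.05 before adjustment (14.3%) and DESeq2 gave 4 calls (3.66%). Between MT and IAA the list had 0 calls in edgeR's test (0.173% of all genes), 11 with an unadjusted p under 0.05 (17.4%) and 4 DESeq2 calls (7.12%).

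Of the 10 genes, SDI2, APR1, APR2 and APR3 overlap a gene on the opposite strand, and since the sources used here do not say whether reads were counted by strand, reads could be shared. The partner of APR2 had at most 2 counts in a library, and a second gene overlapping APR2 was not analysed here. The partners of APR1, APR3 and SDI2 had -0.13, -0.19 and 0.53 with MT, none of them called (adjusted p = 0.626, 0.237 and 0.296).

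With each of the 6 libraries left out in turn, SDI2 and APR1 stayed called with MT (highest adjusted p = 0.0313 and 0.0257). Without control replicate 2 the count of 5 was 3, as SDI1 and APR3 lost their calls (adjusted p = 0.0647 and 0.0707), and without MT replicate 1 LSU2 lost its own (adjusted p = 0.0655). APS3 lost its call with any library left out, and APK2 in every case except control replicate 1. SHM7 lost its call without any of the 4 control and MT libraries. LSU3 kept its call in 3 of the 6 cases (highest adjusted p = 0.0937), SULTR1;3 in 4 (highest adjusted p = 0.0773) and APK1 in 4 (highest adjusted p = 0.0647). The 8 calls among the 42 genes became 3 without control replicate 1, without control replicate 2 or without MT replicate 1. BGLU30 and MYB51 were called with each library left out (highest adjusted p = 0.0314 and 0.0457).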

How the data were processed

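The authors deposited 1 table of raw read counts per gene for the 6 libraries. Per the submitters' processing notes the tools included HTSeq 0.6.1, TopHat2 2.0.12, DESeq 1.18.0 and Bowtie2 2.2.3, without roles or settings. The sources used here do not give the genome build, annotation or strand of counting, so no coordinates are printed. Of 24267 identifiers 23606, and all 10 members, matched the RefSeq TAIR10.1 annotation, used for symbols, overlaps and exon lengths, and 351 were new genes. All were kept in library sizes. SDI2 is not paired there with its symbol.

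The counts were tested with edgeR 4.0.16 under R 4.3.3 (TMM, filterByExpr by group, quasi-likelihood test with group as the only term, 3 residual degrees of freedom), a procedure also tested on simulated data, and with DESeq2 1.42.0 as an alternative. Other alternatives were 2 further normalizations, no filter, robust empirical Bayes, only the groups compared, a replicate block and each library left out. Replicates differed beyond counting noise (chi-square over its degrees of freedom 25.6 to 32.8), so each counted as 1 sample. By rule, all 10 members and the pathway genes called in a comparison were named. LSU4, GGCT2;1, SERAT2;2, SLIM1, the overlapping or neighbouring genes and the single markers were named after their values were seen. Members and lists were chosen with earlier results of these data known.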

Additional observations from a re-analysis of the deposited data

How the results depend on the processing

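Of 819 log2 fold changes of named genes under alternatives (63 values, 13 alternatives each), 758 kept direction and call, 29 lost a call, 24 gained one and 8 changed sign. The 8 were uncalled and changed sign with a library left out. For IAA with control, SERAT2;2 ran from -3.36 to 0.34 and GGCT2;1 from -0.059 to 0.59. For MT with control, LSU1 ran from -2.63 to 4.83 and SULTR1;1 from -0.46 to 0.13. For MT with IAA, LSU1 ran from -4.54 to 0.44, SERAT2;2 from -4.99 to 0.40 and BGLU28 from -0.37 to 0.15.

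DESeq2 called 6 members, 4 other sulfur genes and 768 genes in all with IAA, 13 other sulfur genes and 2905 genes with MT, and 4 members, 4 other sulfur genes and 1225 genes between MT and IAA. The cause was not tested. With IAA the 71 genes called in all became 130 with robust empirical Bayes and 109 with only the 2 groups compared. Between MT and IAA the 37 became 76 with no filter, 142 with robust empirical Bayes and 6 with only the 2 groups compared. With a library left out, genes called in all ran from 14 to 120 with IAA, from 521 to 1304 with MT and from 6 to 333 between MT and IAA. Members called with MT then ran from 3 to 5, other sulfur genes with MT from 3 to 6 and between MT and IAA from 0 to 1.

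Over all genes the deviations of same-numbered libraries correlated with r from 0.00738 to 0.079, and the labels give no meaning to the numbers, so they were not taken as pairs. Of the 10 members, however, 10, 9 and 9 were higher in replicate 1 in control, IAA and MT. With the replicate block all genes called between MT and IAA were 12, members called with MT were 6, as BGLU28 was called (adjusted p = 0.0462), SERAT2;2 was called with MT (adjusted p = 0.0431) and APK2 was not (adjusted p = 0.0738). APK2 also lost its call with upper quartile factors (adjusted p = 0.0503), and APK2 and APS3 did with only the 2 groups compared (adjusted p = 0.0821 and 0.0586). Apart from LSU1, the members had at least 120 counts in every library.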
